A study of Mus musculus with 28 samples.

Results

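Ethanol, retinol, lipid aldehydes and many steroids are oxidised or reduced by enzymes that carry their electrons on NAD or NADP, and the mouse genes for these enzymes fall largely into 5 symbol families. The genes described here are the protein-coding genes whose symbol begins with Adh, Aldh, Akr, Rdh or Dhrs followed by a digit, apart from 1 Akr gene. There were 67 of them among the 54446 genes listed in each library (21918 of these protein-coding): 6 alcohol dehydrogenases (Adh), 21 aldehyde dehydrogenases (Aldh), 16 aldo-keto reductases (Akr), 14 retinol dehydrogenases (Rdh) and 10 further short-chain dehydrogenases/reductases (Dhrs). Symbols were assigned from the Ensembl identifier, and the rule uses no measured value.

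PolyA RNA was sequenced from the liver and the kidney of male C57BL/6 mice, given as C57BL6J in the article. The mice were 8 weeks old and were gavaged for 7 days with nicotinamide mononucleotide (NMN), a precursor of NAD, or with water. Gavage once per day gave 1340 mg/kg/d and 2 gavages per day gave 2680 mg/kg/d, so that dose and number of gavages cannot be told apart. Each organ gave 4 NMN and 4 water libraries from mice at 1340 mg/kg/d and 3 of each from mice at 2680 mg/kg/d. The 28 libraries held 12688324 to 33872983 reads counted on genes. The animals carried no genetic change, each schedule had its own water mice, and comparisons of NMN with water were made within a schedule and an organ.

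In the liver an alcohol dehydrogenase turns ethanol into acetaldehyde and an aldehyde dehydrogenase turns acetaldehyde into acetate, and each step passes electrons to NAD. The same chemistry turns retinol into retinaldehyde and retinoic acid, with the Rdh and Dhrs enzymes acting on retinol or, with NADPH, in the reverse direction on retinaldehyde. Aldo-keto reductases mostly use NADPH to reduce aldehydes, ketosteroids and sugars to alcohols. NAD is therefore a substrate of many of these enzymes, and whether their transcripts changed when an NAD precursor was given is the question put to the data here.

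Of the retinol dehydrogenase genes that lie close together on chromosome 10, 3 were called lower in the liver of NMN mice at 2680 mg/kg/d, and the promoters of these 3 are shown. Rdh7 of the same stretch was not called, and Rdh1 there was too low in the liver to be tested. Each window runs from 250 bases before to 50 bases after the RefSeq start site in GRCm38.p6, on the plus strand, at chr10:127776155-127776454 for Rdh9, chr10:127800903-127801202 for Rdh16 and chr10:127866226-127866525 for Rdh16f2. Capitals mark an E-box (CACGTG) in Rdh9, a TATA box (TATAAA) in Rdh16 and the letters of a TATA box read on the reverse strand (TTTATA) in Rdh16f2.
Rdh9: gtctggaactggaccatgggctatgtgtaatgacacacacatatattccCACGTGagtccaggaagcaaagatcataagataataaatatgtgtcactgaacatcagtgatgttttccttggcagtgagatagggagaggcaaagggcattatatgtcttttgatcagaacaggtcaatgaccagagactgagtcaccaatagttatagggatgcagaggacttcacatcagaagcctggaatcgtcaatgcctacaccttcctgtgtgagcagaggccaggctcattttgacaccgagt
Rdh16: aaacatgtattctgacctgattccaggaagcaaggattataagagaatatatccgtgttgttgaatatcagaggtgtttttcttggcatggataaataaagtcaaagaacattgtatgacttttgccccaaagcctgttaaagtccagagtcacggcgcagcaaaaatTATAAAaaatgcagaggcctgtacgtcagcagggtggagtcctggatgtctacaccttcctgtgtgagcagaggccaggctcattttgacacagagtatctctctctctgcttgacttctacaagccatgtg
Rdh16f2: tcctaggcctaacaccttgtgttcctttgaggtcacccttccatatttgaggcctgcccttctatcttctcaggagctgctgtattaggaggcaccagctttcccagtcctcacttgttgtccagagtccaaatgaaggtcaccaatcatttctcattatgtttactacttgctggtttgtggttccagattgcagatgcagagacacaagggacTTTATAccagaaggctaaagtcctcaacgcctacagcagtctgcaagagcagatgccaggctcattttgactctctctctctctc
The Rdh9 and Rdh16 windows had 204 of 300 bases identical in alignment (68.0%), against 54.7% for Rdh9 with Rdh16f2 and 52.3% for Rdh16 with Rdh16f2. Mismatches carried no penalty in the alignments, which raises the share for any pair. The lowest share of any pair aligned was 44.7%, for Rdh5 with a window of Rdh7. The search covered 61 RefSeq promoter windows of 54 of the 67 genes, among 32851 promoters searched. A gene without a window in this search may still have one in RefSeq. Searched on both strands, the TATA box letters were in 10 of these 61 windows, against 13.6% of the promoters searched. The E-box letters, which read the same on either strand, were in 6 of 61 against 7.15%. The letters TGACNNNGC of an antioxidant response element were in 6 of 61 windows against 12.4% of the promoters searched. The D-box letters TTATGTAA were in 1 of 61 against 0.938%. A match describes letters in a window and is not a bound site.

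The second pair shown is Akr1c12 and Akr1c13, aldo-keto reductases on chromosome 13. Akr1c13 was the gene of the set called higher in the kidney by edgeR with the filter and all libraries, and its neighbour Akr1c12 is nearly its copy. The windows lie at chr13:4279350-4279649 on the minus strand for Akr1c12 and at chr13:4190937-4191236 on the plus strand for Akr1c13, and capitals mark the bases that were not paired with an identical base when the windows were aligned.
Akr1c12: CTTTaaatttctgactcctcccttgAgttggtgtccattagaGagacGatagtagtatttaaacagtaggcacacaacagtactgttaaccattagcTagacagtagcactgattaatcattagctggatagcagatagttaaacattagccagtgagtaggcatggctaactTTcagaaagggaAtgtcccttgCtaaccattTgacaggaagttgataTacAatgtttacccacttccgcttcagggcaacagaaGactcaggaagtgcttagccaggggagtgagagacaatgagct
Akr1c13: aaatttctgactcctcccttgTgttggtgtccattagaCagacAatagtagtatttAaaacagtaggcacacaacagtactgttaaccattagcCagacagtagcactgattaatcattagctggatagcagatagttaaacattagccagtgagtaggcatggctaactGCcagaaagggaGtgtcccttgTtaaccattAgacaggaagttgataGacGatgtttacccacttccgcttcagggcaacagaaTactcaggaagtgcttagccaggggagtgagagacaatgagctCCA
In this alignment 284 of 300 bases were identical (94.7%), whereas the other Akr1c promoters had 47.7% to 63.3% of their bases identical to that of Akr1c13. Mismatches carried no penalty here either. In the transcripts, 28.6% of the stretches of 50 bases in Akr1c12 and 24.2% of those in Akr1c13 occurred in the other gene. Reads without a unique place were left out of the counts, and how many came from such stretches was not tested.

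Levels are given as CPM, the reads of a gene scaled to library size over all 28 libraries by edgeR's TMM method, and as RPKM, the same value per kilobase of exon, where genes are compared with each other. The scaling factors averaged 1.28 to 1.47 in the kidney groups and 0.658 to 0.754 in the liver groups, so that the order of liver and kidney depends on them. With library size alone as the scale, an alternative added after the data were seen, the median of all tested genes moved from -0.10 to -1.05 (log2, liver over kidney) in the 1340 mg/kg/d schedule and from -0.17 to -1.10 in the other.

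The tissue labels were checked against markers before the families were described. The summed level of 8 hepatocyte markers was 153030 ± 19749 CPM (SD, n = 4) in the liver and 245 ± 8.44 CPM in the kidney of water mice at 1340 mg/kg/d, and that of 8 proximal tubule markers was 88.0 ± 3.09 and 23645 ± 3501 CPM. Albumin (Alb) led the hepatocyte list in the liver and the androgen-regulated kidney gene Kap led the tubule list in the kidney. The livers of the 1340 mg/kg/d schedule held more kidney transcripts than those of the other schedule: Kap was at 35.9 CPM in water livers, 0.231% of its kidney level, against 3.75 CPM and 0.0227%. Umod, made by the thick ascending limb, was at 0.260% and 0.0245% of its kidney level, and the kidney enzyme Akr1c21 at 0.304% and 0.0186%. Alb in the kidney likewise was at 60.8 CPM in the 1340 mg/kg/d schedule and 8.23 CPM in the 2680 mg/kg/d schedule. The part of these transcripts in the organ differences below was not tested.

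Single liver libraries stood apart in each schedule. Liver NMN replicate 1 at 2680 mg/kg/d correlated least with the rest of its group (r = 0.9715 over log2 levels), had 9.24% of its reads on mitochondrial genes against 7.16% and 7.04% in the other NMN livers, and held Kap at 29.0 CPM against 1.05 and 1.12. It is the library meant below as standing apart, and the main results for the liver at 2680 mg/kg/d are given with and without it. At 1340 mg/kg/d, liver NMN replicate 4 had 12.8% of its reads in no gene against 4.91% to 7.44% in the other NMN livers, 5.10% in several genes against 3.09% to 3.59%, and a hepatocyte marker sum of 121420 CPM against 157730 to 169900 CPM. Its summed level of the 67 genes was 16493 CPM, also the lowest of its group, against 19056 to 22488 CPM. In bulk RNA, fewer cells of a type and less RNA per cell cannot be told apart, and this holds for each level below.

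The liver carried more of these transcripts than the kidney. In water mice the summed level of all 67 genes was 19497 ± 378 CPM in the liver at 1340 mg/kg/d (n = 4) and 23591 ± 901 CPM at 2680 mg/kg/d (n = 3), against 7172 ± 483 and 7175 ± 34.5 CPM in the kidney. As a share of counted reads, which leaves out the TMM factors, the difference was smaller, 1.44% in the liver against 1.04% in the kidney at 1340 mg/kg/d and 1.55% against 0.918% at 2680 mg/kg/d. The families made unequal parts of it. Aldehyde dehydrogenases summed to 8816 CPM in the liver and 3218 CPM in the kidney at 1340 mg/kg/d, aldo-keto reductases to 3947 and 2743 CPM, alcohol dehydrogenases to 3624 and 487 CPM, and retinol dehydrogenases to 2469 and 317 CPM. As a share of counted reads the aldo-keto reductases stood the other way, with 0.291% in the liver and 0.397% in the kidney at 1340 mg/kg/d and 0.271% and 0.343% at 2680 mg/kg/d. The Dhrs genes took 0.0472% and 0.0588% at 1340 mg/kg/d, and their ranges overlapped at 2680 mg/kg/d, while the other 3 families remained higher in the liver. In every liver library 8 of the 67 genes had no read (Akr1cl, Aldh3a1, Aldh3b2, Dhrs2, Dhrs7c, Rdh16f1, Rdh19 and Rdh8), and in every kidney library 4 had none (Dhrs2, Dhrs7c, Rdh16f1 and Rdh8). All of the exon sequence of Rdh16f1 occurs in other genes too, so its reads could not be counted. At the other end, 43 genes reached 1 CPM in every liver library and 43 in every kidney library.

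Per kilobase, the highest genes of the set in the liver were Adh1, the main ethanol-oxidising enzyme, at 1286 ± 85.2 RPKM (water, 1340 mg/kg/d, n = 4) and 2097 ± 217 RPKM (2680 mg/kg/d, n = 3), and Rdh7, a microsomal retinol dehydrogenase, at 1201 ± 167 and 1079 ± 108 RPKM. Their ranges overlapped at 1340 mg/kg/d and not at 2680 mg/kg/d. Next came Akr1c6, a hydroxysteroid dehydrogenase, at 935 ± 79.7 and 945 ± 72.2 RPKM, whose range met that of Rdh7 at 2680 mg/kg/d, and Aldh2, the mitochondrial acetaldehyde dehydrogenase, at 552 ± 32.7 and 586 ± 21.5 RPKM. Aldh1l1, which oxidises 10-formyltetrahydrofolate, was at 363 ± 44.4 and 553 ± 64.9 RPKM, and Aldh1a1, which makes retinoic acid, at 302 ± 54.3 and 378 ± 31.6 RPKM. The remaining leading genes of their families in the liver were lower: Akr1a1 at 204 and 221 RPKM, Rdh16f2 at 172 and 239 RPKM, Akr1c14 at 151 and 159 RPKM, Adh4 at 117 and 139 RPKM, and Adh5, which removes formaldehyde bound to glutathione, at 106 and 119 RPKM. Dhrs3 and Dhrs4, both reductases of retinaldehyde, were at 73.8 and 95.7 RPKM at 1340 mg/kg/d, Dhrs1 at 57.5 RPKM, and Rdh11, another retinaldehyde reductase, at 18.7 RPKM. Per kilobase, Akr7a5 was above Akr1c14 and Rdh14 above Rdh11 at 1340 mg/kg/d, and each was below at 2680 mg/kg/d.

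The kidney had a different order. Akr1c21, a 3-alpha- and 17-alpha-hydroxysteroid dehydrogenase, was first at 630 ± 43.8 RPKM (1340 mg/kg/d, n = 4) and 636 ± 10.8 RPKM (2680 mg/kg/d, n = 3), and Akr1a1, the aldehyde reductase that mice use in making ascorbate, was second at 459 ± 47.7 and 438 ± 18.9 RPKM. Adh1 followed at 151 ± 29.7 and 218 ± 37.8 RPKM and Akr7a5, a reductase of aflatoxin aldehyde, at 143 ± 19.9 and 115 ± 4.35 RPKM. A set of 3 aldehyde dehydrogenases lay close together: Aldh6a1 of valine breakdown at 126 ± 4.83 RPKM, Aldh9a1 of carnitine synthesis at 120 ± 6.85 RPKM and Aldh2 at 111 ± 2.83 RPKM in the 1340 mg/kg/d schedule. Dhrs4 was at 87.9 ± 9.95 RPKM, Rdh16f2 at 64.0 ± 7.26 RPKM, Dhrs3 at 45.3 ± 3.37 RPKM and Adh5 at 27.2 ± 1.66 RPKM. Dhrs1 at 23.7, Rdh16 at 19.5, Rdh14 at 17.1 and Adh7 at 0.372 RPKM closed the list of the 3 leading genes of each family.

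**Figure D1:**
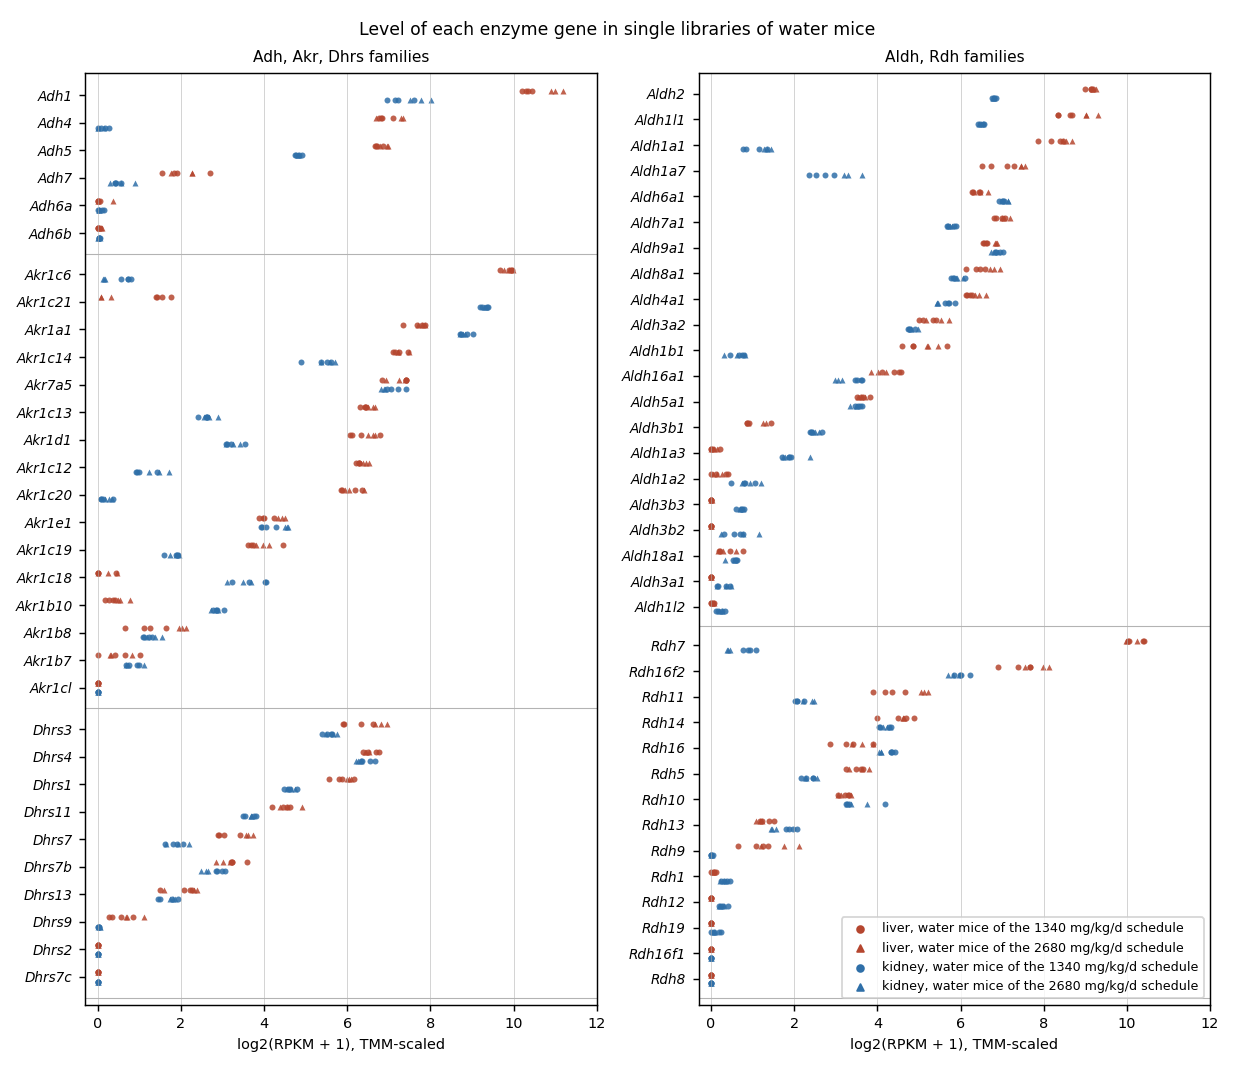
Levels of the 67 genes in water mice, as log2(RPKM + 1) in each liver and kidney library, grouped by family. Adh1, Rdh7 and Akr1c6 are the highest in the liver and Akr1c21 and Akr1a1 in the kidney, and each family holds genes near 0 in both organs.

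How the organs differed was asked in water mice, once in each schedule. At 1340 mg/kg/d 57 of the 67 genes passed the filter on low counts and 47 differed between the organs, 32 higher in the liver and 15 higher in the kidney, where 66.9% of the 14599 tested genes differed (30.9% and 36.1%). In the 2680 mg/kg/d mice 48 of 56 differed, 35 and 13, where 70.5% of 14844 genes did (31% and 39.5%). A gene that is high in 1 organ passes the filter through that organ, so these counts describe the set and are no evidence about it. The median log2 difference, liver over kidney, was 0.49 and 0.99 for the set, against -0.10 and -0.17 for all tested genes. With library size as the only scale the split was 24 higher in the liver and 28 in the kidney of 52 called at 1340 mg/kg/d, and 25 and 23 of 48 called at 2680 mg/kg/d, where 11.5% and 69.6% and then 12.5% and 70% of all genes were.

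In both schedules and in the same direction, 32 genes were higher in the liver and 13 in the kidney, where 27.7% and 33% of the 14198 genes tested in both schedules were. By family the numbers higher in the liver and in the kidney were 4 and 0 for Adh, 10 and 6 for Aldh, 7 and 4 for Akr, 5 and 3 for Rdh and 6 and 0 for Dhrs. With library size as the only scale the totals were 24 and 23, and by family 4 and 0 for Adh, 5 and 9 for Aldh, 7 and 7 for Akr, 5 and 5 for Rdh and 3 and 2 for Dhrs. On that scale 11.5% of all genes were higher in the liver and 69.6% in the kidney at 1340 mg/kg/d alone, and 12.5% and 70% at 2680 mg/kg/d alone. Of the 32 genes higher in the liver, 24 were then still called higher there in both schedules and Dhrs7b was called higher in the kidney. The other 7, Aldh16a1, Aldh3a2, Aldh4a1, Aldh7a1, Aldh8a1, Dhrs11 and Dhrs3, were not called in 1 direction in both, and the 13 higher in the kidney kept their calls. A further 11 genes were not called in both schedules, among them Akr7a5, Aldh5a1, Dhrs4 and Rdh14, and 11 were not tested in both.

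The largest differences toward the liver belonged to Akr1c6, Rdh7 and Adh4. Akr1c6 was at 1999, 2015, 1665 and 1922 CPM in the water livers at 1340 mg/kg/d and at 0.972, 1.32, 1.33 and 1.51 CPM in the kidneys, a log2 difference of 10.50 ± 0.20 (SE), and at 2680 mg/kg/d the difference was 12.99 ± 0.19. Rdh7 differed by 10.36 ± 0.22 and 11.63 ± 0.19, and Adh4, a class of alcohol dehydrogenase found mainly in liver, by 10.10 ± 0.33 and 11.53 ± 0.44. The adjusted p of these 6 tests lay between 2.9e-13 and 3.9e-09. Each difference was larger in the 2680 mg/kg/d schedule, whose kidneys held 0.223 CPM of Akr1c6 against 1.28 CPM, beside the lower Alb level given above.

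Toward the kidney, among genes with more than 3 liver reads, the largest differences were those of Akr1c21 and Akr1c18 at 1340 mg/kg/d and of Akr1c21 and Aldh1a3 at 2680 mg/kg/d. The place of Aldh3b3 in this order is not fixed, since it had at most 1 liver read. Akr1c21 was at 994, 873, 908 and 1009 CPM in the kidneys and at 2.55, 2.90, 3.57 and 2.47 CPM in the livers at 1340 mg/kg/d, a log2 difference of -8.38 ± 0.17. In the other schedule it was -12.34 ± 0.26, with 0.0758, 0.374 and 0.0831 CPM in the livers, beside the lower level of Kap in these livers given above. Akr1c18, which inactivates progesterone, differed by -7.23 ± 0.56 and -5.68 ± 0.47. Aldh3b3, an aldehyde dehydrogenase of the Aldh3 group, had no read in the 4 water livers at 1340 mg/kg/d and was at least 9.41-fold higher in the kidney when a floor of 3 counts per library is set for the liver. In the other schedule it had 1 read in the livers, and the kidney was 105-fold higher with a 95% counting interval of 18.7 to 4181.

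Retinoid enzymes lay on both sides. Aldh1a1 was higher in the liver by 8.11 ± 0.30 and 7.89 ± 0.16 on the log2 scale, whereas its relatives Aldh1a2 and Aldh1a3, which also make retinoic acid, were higher in the kidney, Aldh1a3 by -5.63 ± 0.51 and -5.89 ± 0.51 (liver over kidney). The neighbours on chromosome 10 also differed from each other: Rdh16f2 was higher in the liver by 1.40 ± 0.17 and 2.06 ± 0.15, and Rdh16 higher in the kidney with -1.05 ± 0.19 and -0.49 ± 0.15. Rdh9, with 2 reads in the water kidneys at 1340 mg/kg/d, was 192-fold higher in the liver at 1340 mg/kg/d (95% counting interval 52.4 to 1598), and with 1 read in the kidneys 558-fold higher at 2680 mg/kg/d (99.4 to 22106). Of the exon sequence of Rdh9, 68.3% of stretches of 50 bases occur elsewhere, mostly in Rdh16f1, so its level is uncertain.

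**Figure D2:**
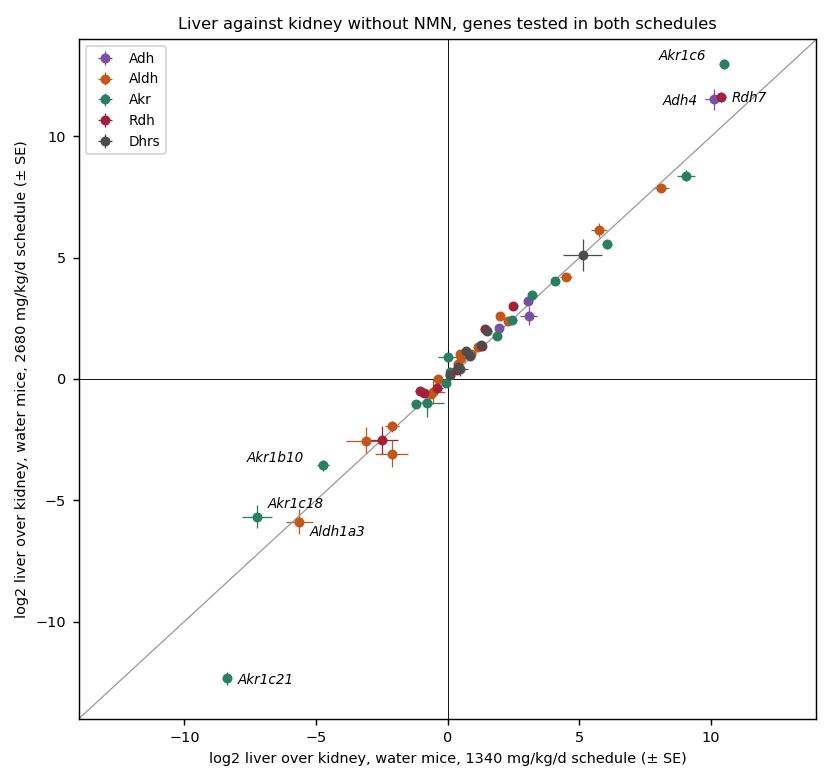
Log2 difference between liver and kidney of water mice for 54 genes tested in both schedules, at 1340 mg/kg/d on the horizontal and 2680 mg/kg/d on the vertical axis, with SE bars and colours for the families. Akr1c6, Rdh7 and Adh4 lie at one end, Akr1c21, Akr1c18 and Aldh1a3 at the other, and Aldh3b3 and Rdh9 are left out because 1 organ had 3 or fewer reads.

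NMN at 2680 mg/kg/d changed a part of the set in the liver. Of 67 genes, 48 passed the filter on low counts and 6 passed an adjusted p of 0.05 (12.5%), where 7.08% of all 12477 tested genes did. Rdh16f2, Rdh16, Rdh9, Aldh4a1 and Aldh1a7 were lower (10.4% of the set against 4.03% of all genes) and Adh7 was higher (2.08% against 3.05%). With library size as the only scale 5 genes of the set were lower and 2 higher, where 2.61% of all genes were lower and 6.56% higher, so the larger share of all genes lay on the other side. At an adjusted p of 0.01 with a fold change over 2 or under 0.5, 1 gene of the set passed, Rdh16f2, where 1.08% of all tested genes did. The summed level of the 67 genes was 24047, 24174 and 22553 CPM in the water livers and 14927, 21084 and 20635 CPM in the NMN livers. Each NMN liver was below each water liver, and the library that stood apart was the lowest. As a share of counted reads the genes took 1.54%, 1.57% and 1.54% in the water livers and 1.17%, 1.51% and 1.51% in the NMN livers, which lay close to the water livers but for that library.

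The direction extended beyond the genes that passed the test. Log2 fold changes were negative for 38 of the 48 genes (79.2%) and 49.6% of all tested genes, with a median of -0.27 against 0.00 for all genes (0.0045). The groups did not overlap for 26 of the 48 genes (54.17%), 21 lower and 5 higher, where 29.2% of all tested genes did not overlap (16% lower and 13.1% higher). Without liver NMN replicate 1, which leaves fewer values to overlap, 22 of the 48 were lower and 7 higher, where 19.6% and 19.5% of all genes were. With library size as the only scale 13 were lower and 5 higher, where 9.87% and 22.2% of all genes were. Without liver NMN replicate 1, an estimate in which 50 genes were tested, the median was -0.23 and 31 of 50 were negative. With library size as the only scale the median was -0.11 with 30 of 48 negative, beside a median of 0.15 for all genes. By family the median was -0.13 for Adh, -0.28 for Aldh, -0.32 for Akr, -0.33 for Rdh and -0.08 for Dhrs. Without liver NMN replicate 1 these were 0.00 (-0.0047), -0.32, -0.26, -0.15 and -0.01, and with library size as the only scale 0.02, -0.13, -0.17, -0.19 and 0.07, where those of Adh and Dhrs changed sign. The summed level of the 8 hepatocyte markers was 248550, 233210 and 215550 CPM in the water livers and 162440, 186140 and 184730 CPM in the NMN livers, with Alb the most abundant, 2 of 8 lower by the test and none at 0. The share of reads in no gene was also higher in each NMN liver (3.90% to 5.06%) than in each water liver (3.27% to 3.62%), and so were the TMM factors (0.714 to 0.784 against 0.640 to 0.685). The 6 liver endothelial markers, led by Clec4g, summed to 230 ± 25.0 CPM in water and 256 ± 55.9 CPM in NMN livers, which overlapped, with 0 of 6 called, 3 higher without overlap and none at 0. The part of these in the results for the set was not tested.

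**Figure D3:**
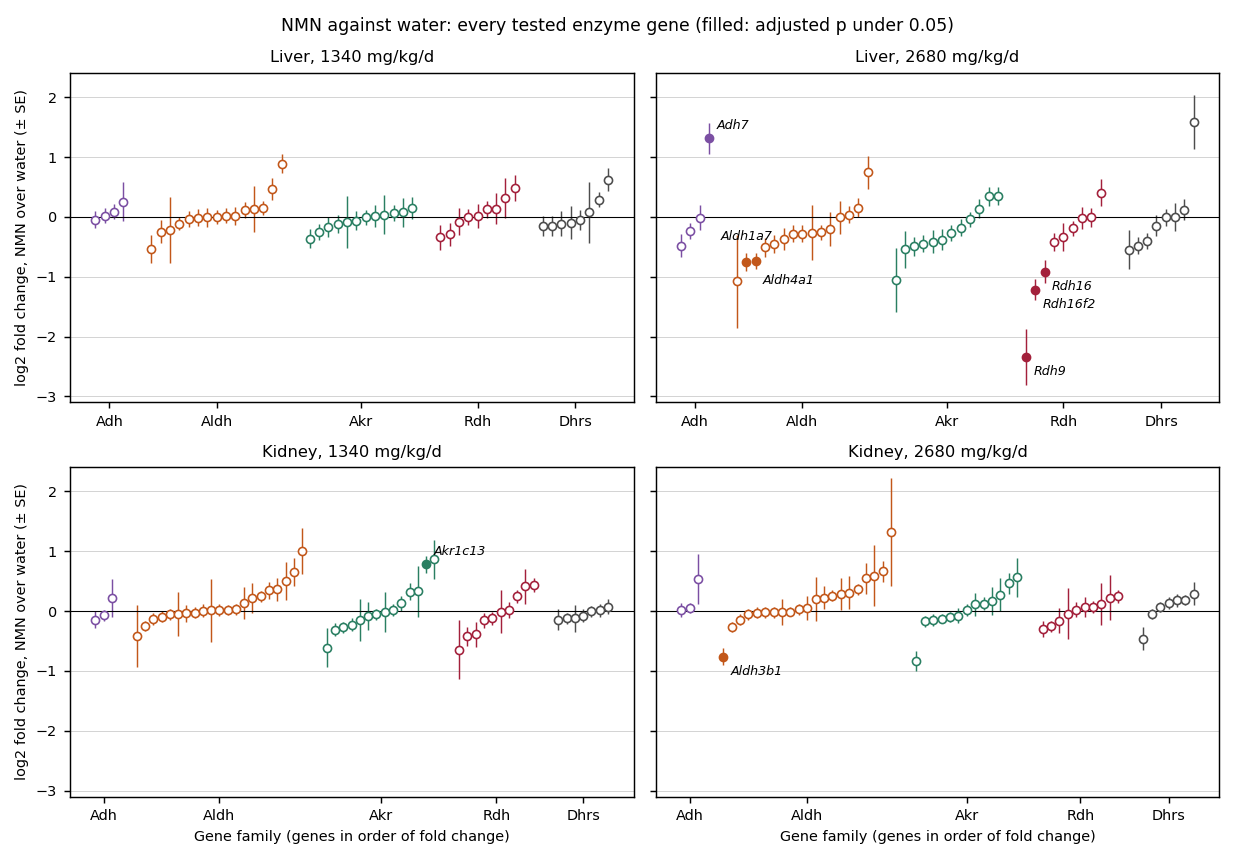
Log2 fold change of NMN against water for each tested gene of the 5 families in both organs and schedules, with filled symbols for an adjusted p under 0.05. In the liver at 2680 mg/kg/d 38 of 48 genes lie below 0 and 6 are filled, and in the other panels 0 or 1 are filled.

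Rdh16f2, a relative of Rdh16, which oxidises retinol and hydroxysteroids, was the gene with the smallest adjusted p. It was at 321, 352 and 236 CPM in the water livers and at 104, 136 and 143 CPM in the NMN livers. The groups did not overlap, and the highest NMN liver was well below the lowest water liver. The log2 fold change was -1.22 ± 0.17 (SE) with an adjusted p of 0.0037. Rdh16 was at 58.8, 70.2 and 85.4 CPM against 32.8, 34.3 and 44.7 CPM, a change of -0.92 ± 0.19 (adjusted p = 0.020). Rdh9 was at 4.70, 8.60 and 11.965 CPM against 0.873, 1.47 and 2.62 CPM, a change of -2.34 ± 0.47 (adjusted p = 0.017). Both groups were separate for each gene, but Rdh9 is a low gene most of whose sequence is shared. Rdh16 and Rdh16f2 share 14.54% and 10.03% of their stretches of 50 bases with other genes, and reads without a unique place were left out of the counts. Of the Rdh family 3 of 9 tested genes passed (33.3%, beside 7.08% of all tested genes), and Rdh7, the most abundant of them, was 1811 ± 181 CPM in water and 1560 ± 139 CPM in NMN livers (-0.19 ± 0.13, adjusted p = 0.39).

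Among the aldehyde dehydrogenases 2 of 15 tested genes were lower, beside 4.03% of all tested genes. Aldh4a1, which turns pyrroline-5-carboxylate from proline into glutamate, was at 424, 475 and 397 CPM in water and at 273, 253 and 235 CPM in NMN livers. The groups were far apart, with a log2 fold change of -0.74 ± 0.14 (adjusted p = 0.013). Gene Gm21969 overlaps Aldh4a1 on the same strand and covers 30.0% of its stretches, where reads of both could not be assigned. Aldh1a7, a close relative of Aldh1a1, was at 382, 358 and 358 CPM in water and at 167, 254 and 223 CPM in NMN livers, a change of -0.75 ± 0.15 (adjusted p = 0.018). The water values lay close together and the NMN values spread more widely below them. Aldh1l1 was at 2336, 2834 and 2317 CPM against 1524, 2126 and 1730 CPM, also without overlap, and did not pass (-0.45 ± 0.14, adjusted p = 0.082). An antisense gene covers 11.1% of its exon bases, and the counting did not use strand.

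Adh7 was the 1 of the 6 called genes that rose. This alcohol dehydrogenase acts on retinol and is best known from the stomach and oesophagus. An antisense gene covers 2.85% of its exon bases. It was at 14.3, 8.98 and 14.4 CPM in water livers and at 38.2, 23.7 and 29.5 CPM in NMN livers. The groups did not overlap, and the library that stood apart was the highest. The log2 fold change was 1.31 ± 0.26 (adjusted p = 0.016), and without that library 1.08 ± 0.25 (adjusted p = 0.030). Dhrs9, a retinol and hydroxysteroid dehydrogenase, was at 5.004, 2.54 and 2.66 CPM against 16.7, 5.87 and 7.12 CPM. It did not pass (1.59 ± 0.45, adjusted p = 0.061), and its change was 0.93 ± 0.37 without the library that stood apart (adjusted p = 0.17). It was called by DESeq2 (adjusted p = 0.0074), and in edgeR without a filter (0.00012), with library size as the only scale (0.044) and without NMN replicate 2 (0.023).

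Other leading enzymes of the liver, Adh1, Akr1c6, Aldh2 and Aldh1a1 among them, did not pass in edgeR with the filter and all libraries. Without a filter Adh1, Akr1c6 and Dhrs3 were called, as was Dhrs3 by DESeq2 and Adh1 without NMN replicate 2. Adh1 was at 5209.9, 4579 and 4257 CPM in water and at 2180.3, 4189 and 3540.2 CPM in NMN livers (-0.48 ± 0.19, adjusted p = 0.15; -0.28 ± 0.13 without the library that stood apart). Akr1c6 was at 2064, 1926 and 1771 CPM against 1069, 1592 and 1497 CPM (-0.45 ± 0.15, adjusted p = 0.093; -0.32 ± 0.12 without it). Dhrs3 was at 361, 294 and 325 CPM against 195, 247 and 246 CPM (-0.49 ± 0.14, adjusted p = 0.065; -0.41 ± 0.15 without it). For each of these genes the NMN livers lay below the water livers without overlap, and the library that stood apart was the lowest. Aldh2 was at 2953, 3132 and 2932 CPM against 1937, 2584 and 2785 CPM, separate as well, with a smaller change (-0.28 ± 0.14, adjusted p = 0.25; -0.17 ± 0.12 without it). Aldh1a1 was at 1865 ± 156 CPM in water and 1598 ± 697 CPM in NMN livers (n = 3 each), which overlapped, with 842 CPM in the library that stood apart (-0.21 ± 0.29, adjusted p = 0.71). Without that library the sign of the value for Aldh1a1 turned (0.08 ± 0.14, adjusted p = 0.81). Adh4, Dhrs4, Rdh11 and Akr1a1 had changes of -0.01 ± 0.21, -0.01 ± 0.15, -0.01 ± 0.16 and -0.04 ± 0.13, and their groups overlapped. With library size as the only scale these were 0.13, 0.14, 0.14 and 0.11, beside the shift of all genes to 0.15, and without the library that stood apart they were 0.14, 0.09, 0.09 and 0.01.

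Without liver NMN replicate 1 the 6 genes kept their calls and Aldh3a2, with 234, 477 and 517 CPM in NMN and 198, 253 and 289 CPM in water livers, was called as well. The share of all genes called was then 5.6%. Leaving out other libraries moved the counts of the set and of all genes further. 1 gene was called without water replicate 2 (Rdh16f2; 1.64% of all genes), 3 without water replicate 3 (Adh7, Aldh4a1 and Rdh16f2; 3.82%) and 3 without NMN replicate 3 (Rdh16, Rdh16f2 and Rdh9; 1.83%). There were 5 without water replicate 1 (all but Aldh1a7, 2.45% of all genes) and 10 without NMN replicate 2 (10.2%). Rdh16f2 was called each time, with an adjusted p between 0.0045 and 0.027.

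**Figure D4:**
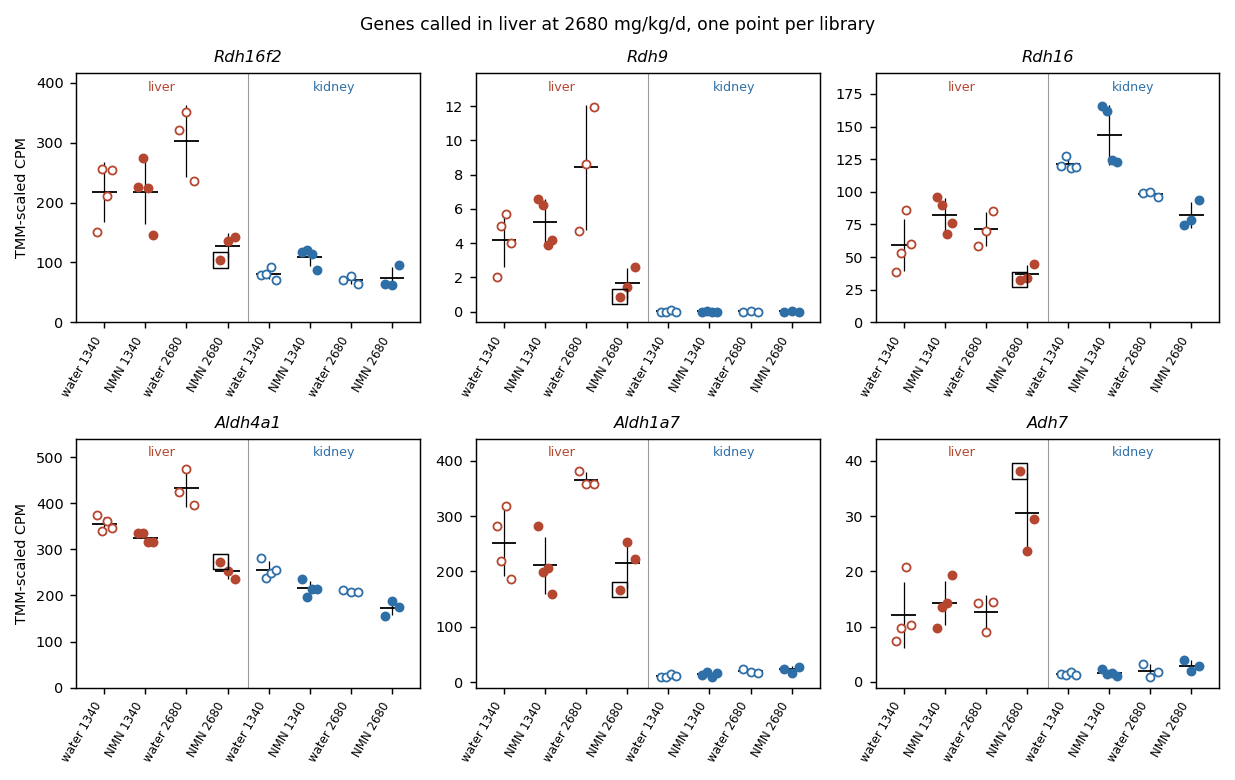
CPM in each liver and kidney library for the 6 genes called in the liver at 2680 mg/kg/d, water as open and NMN as filled symbols in both schedules, with mean and SD; a square marks liver NMN replicate 1 at 2680 mg/kg/d. In the liver the groups are separate for all 6 genes at 2680 mg/kg/d and overlap at 1340 mg/kg/d for all but Aldh4a1.

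At 1340 mg/kg/d no gene of the set was called in the liver by edgeR with the filter, all libraries and no block, and 1 by DESeq2. Of the 48 tested genes 0 passed, where 0.0161% of all 12449 tested genes did, and 7 had an unadjusted p under 0.05 (14.6% against 6.86%). The median log2 fold change was -0.01 (-0.0055) against 0.00 (-0.0027) for all genes, with 23 of 48 genes positive. Without NMN replicate 4 it was 0.05 with 31 of 48 positive, beside -0.01 (-0.0098) for all genes, and 0 of 48 were called where 18 of 12704 genes were (0.142%). The closest was Aldh3a2, the fatty aldehyde dehydrogenase, at 174, 186, 221 and 232 CPM in water and 285, 401, 459 and 344 CPM in NMN livers. Each NMN liver was above each water liver, with a log2 fold change of 0.89 ± 0.16 and an adjusted p of 0.090. It passed in DESeq2 (adjusted p = 0.00061) and in edgeR without NMN replicate 1 (0.048). Aldh3a2 also passed in edgeR on all libraries when no filter was used, and when the fit was blocked by replicate number. Its adjusted p was 0.060 without NMN replicate 4. The genes that were lower at 2680 mg/kg/d had changes of 0.01 ± 0.20 (Rdh16f2), 0.48 ± 0.21 (Rdh16), 0.32 ± 0.33 (Rdh9), -0.11 ± 0.11 (Aldh4a1) and -0.25 ± 0.20 (Aldh1a7), with an adjusted p of 0.71 or more for each. In the test of the difference between schedules 0 of 50 genes passed in edgeR (6 at an unadjusted p under 0.05), where 0.0746% of 13412 genes did (8.6% unadjusted). In DESeq2 4 of 59 genes passed (Aldh4a1, Rdh16, Rdh16f2 and Rdh9), where 0.404% of 24281 genes did. The smallest adjusted p in edgeR were 0.10 for Rdh9 (-2.64 ± 0.59) and Rdh16 (-1.39 ± 0.31) and 0.12 for Rdh16f2 (-1.22 ± 0.29). Without liver NMN replicate 4 at 1340 mg/kg/d Rdh16f2 was called for this difference, and without water replicate 3 Rdh16 was. A change at 2680 mg/kg/d that differs from that at 1340 mg/kg/d was thus not shown by edgeR with all libraries.

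In the kidney 1 gene was called in each schedule by edgeR with the filter, TMM, all libraries and no block. At 1340 mg/kg/d 55 genes were tested and 1 passed (1.82%), where 0.12% of all 14972 tested genes did. Akr1c13 was at 6.20, 7.42, 7.32 and 7.41 CPM in water and at 13.5, 12.2, 11.3 and 11.9 CPM in NMN kidneys. Every NMN kidney was above every water kidney, with a log2 fold change of 0.78 ± 0.14 (adjusted p = 0.039). Its near copy Akr1c12 was at 1.16, 1.24, 1.11 and 2.13 CPM against 3.82, 2.63, 2.39 and 1.48 CPM, which overlapped (0.87 ± 0.33, adjusted p = 0.42). The call for Akr1c13 was lost without each water replicate and without NMN replicates 1 and 2, with an adjusted p of up to 0.14, and with library size as the only scale (0.051). The same gene at 2680 mg/kg/d was at 9.29, 7.71 and 7.02 CPM in water and 12.5, 8.196 and 12.4 CPM in NMN kidneys, which overlapped (0.47 ± 0.17, adjusted p = 0.34). In the liver at 1340 mg/kg/d, where its level was 120 ± 5.86 CPM in water mice, the change was 0.06 ± 0.14. In the liver at 2680 mg/kg/d it was at 137 ± 8.45 CPM in water and 112 ± 5.85 CPM in NMN mice, without overlap (-0.27 ± 0.14, adjusted p = 0.25). The difference of its NMN effect, liver minus kidney, was -0.75 ± 0.22 at 2680 mg/kg/d and did not pass in edgeR (adjusted p = 0.080), whereas it was called by DESeq2 and by edgeR without kidney NMN replicate 2. In the kidney at 1340 mg/kg/d Rdh16f2, with a change of 0.44, was called by DESeq2 and in edgeR without a filter. The median change of the 55 genes was -0.01 (-0.0085), against 0.00 for all genes (0.0011).

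In the kidneys at 2680 mg/kg/d 54 genes were tested and 1 passed (1.85%), where 0.4% of all 15245 tested genes did. Aldh3b1, which oxidises medium- and long-chain aldehydes, was at 9.21, 10.3 and 9.55 CPM in water and at 5.70, 4.90 and 6.39 CPM in NMN kidneys. The groups were separate, with a log2 fold change of -0.76 ± 0.14 (adjusted p = 0.042). The call held without NMN replicate 1 and was lost without each of the other 5 libraries, with an adjusted p of up to 0.19, and with library size as the only scale (0.051). Akr1c18 was at 14.2, 9.17 and 12.4 CPM against 6.91, 6.02 and 7.07 CPM, again separate, and did not pass (-0.84 ± 0.16, adjusted p = 0.051). It was called by DESeq2 (adjusted p = 0.0011), and in edgeR with DESeq2's size factors (0.049), without a filter (7.0e-06), with the replicate number as a block and without water replicate 2 or NMN replicate 1. Aldh1a1 was at 7.68 ± 0.759 CPM in water and 12.1 ± 2.78 CPM in NMN kidneys, a log2 fold change of 0.66, and did not pass either. For Aldh1a1 a call was made by DESeq2, and in edgeR without a filter and without NMN replicate 2. Its change in the kidney at 1340 mg/kg/d was 0.65, and it was not called there either. It was at 5.29 ± 1.92 CPM in those water kidneys and 8.32 ± 1.61 CPM in those NMN kidneys, which overlapped. The median of the 54 genes was 0.06 against 0.00 (0.0038).

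The genes that led in the kidney did not pass in either schedule. Akr1c21 was at 946 ± 65.8 CPM in water and 912 ± 90.6 CPM in NMN kidneys at 1340 mg/kg/d (-0.05 ± 0.10, n = 4 each) and at 955 ± 16.2 and 965 ± 124 CPM at 2680 mg/kg/d (0.02 ± 0.10, n = 3 each). Akr1a1 was at 1262 ± 131 and 1019 ± 127 CPM (-0.31 ± 0.10, adjusted p = 0.36), which overlapped, and at 1205 ± 52.0 and 1069 ± 53.2 CPM (-0.17 ± 0.09, adjusted p = 0.52), which did not. Adh1 changed by -0.14 ± 0.15 and 0.02 ± 0.12, with overlap in both schedules. Aldh4a1, lower in the liver, was at 256 ± 18.6 CPM in water and 215 ± 15.5 CPM in NMN kidneys at 1340 mg/kg/d (-0.25 ± 0.09, adjusted p = 0.40) and at 209 ± 3.10 and 173 ± 16.2 CPM at 2680 mg/kg/d (-0.27 ± 0.09, adjusted p = 0.26). In each schedule and organ its NMN libraries lay below the water libraries, although the call was made in the liver at 2680 mg/kg/d alone. In the test between schedules 0 of 55 genes passed in the kidney in edgeR and 0 in DESeq2 (3 at an unadjusted p under 0.05), where 0.00625% of 15989 genes did (4.62% unadjusted).

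Depth and some markers differed between NMN and water kidneys, and mitochondrial reads and adipocyte markers differed between the schedules. At 1340 mg/kg/d the NMN libraries (13174264 to 14006288 counted reads) were each smaller than the water libraries (15354270 to 15696435 reads), and at 2680 mg/kg/d they were each larger (22922994 to 33872983 against 16358886 to 18983689 reads). The summed level of the 8 proximal tubule markers was 23645 ± 3501 CPM in water and 18647 ± 2148 CPM in NMN kidneys at 1340 mg/kg/d, with overlap. At 2680 mg/kg/d it was 23851 ± 1015 and 18556 ± 2491 CPM, without overlap. The fall was mostly through Kap, with 0 of 8 called and none at 0, but 6 of 8 had a negative change in each schedule. At 1340 mg/kg/d 2 of 8 were lower without overlap and at 2680 mg/kg/d 4 of 8, where 5.0% and 17.13% of all genes did not overlap. The 6 markers of the thick ascending limb and distal tubule, led by Umod, were at 3015 ± 186 CPM in water and 3659 ± 122 CPM in NMN kidneys at 1340 mg/kg/d, where each NMN kidney was above each water kidney, and 2745 ± 250.5 and 2954 ± 227 CPM, with overlap, at 2680 mg/kg/d. The 6 podocyte and glomerulus markers, led by Podxl, were at 246 ± 45.5 and 305 ± 67.7 CPM and at 216 ± 34.1 and 263 ± 18.0 CPM. In both lists 0 of 6 were called and none was at 0. Kidneys of the 2680 mg/kg/d schedule had 20.6% of their reads on mitochondrial genes in water mice against 9.71% in the other schedule, and 339 ± 61.5 CPM of adipocyte markers against 62.9 ± 29.2 CPM. In NMN kidneys the mitochondrial shares were 20.3% and 9.48%, which overlapped with those of water mice within each schedule. The part of these in the kidney results was not tested.

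**Figure D5:**
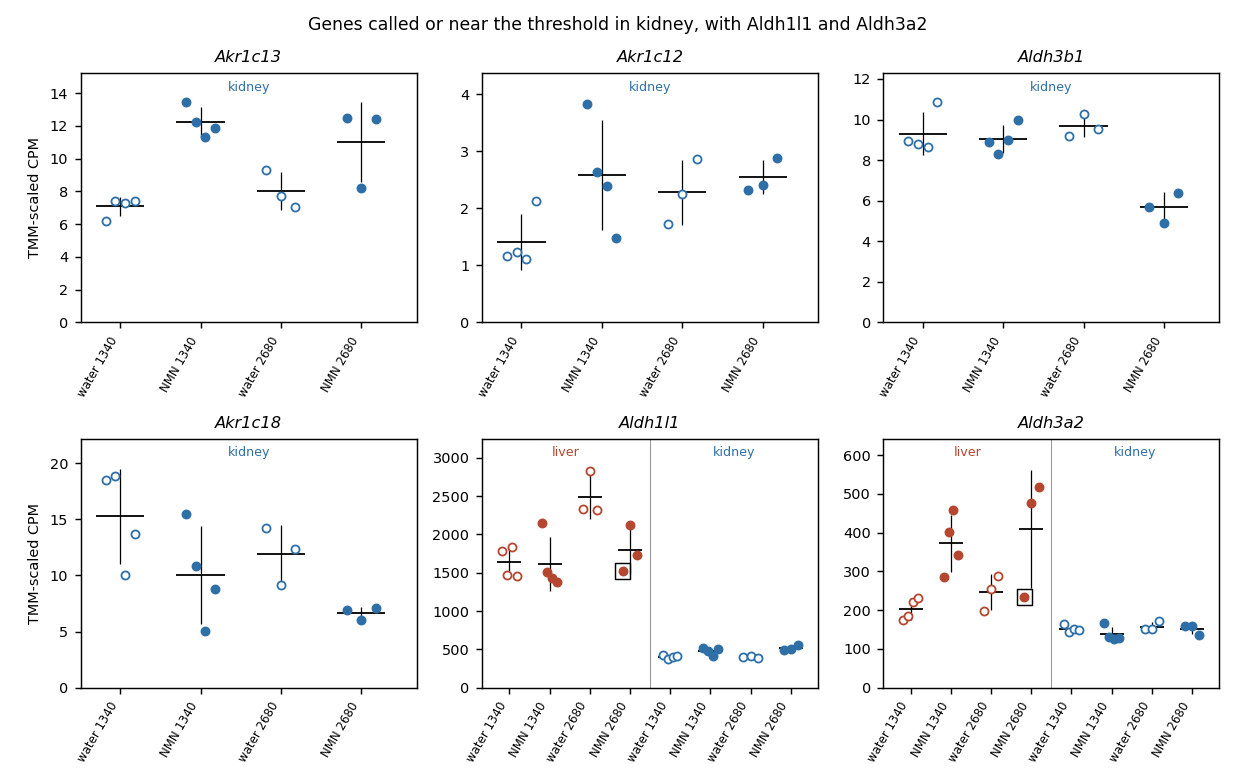
CPM in each library of Akr1c13, Akr1c12, Aldh3b1 and Akr1c18 in the kidney and of Aldh1l1 and Aldh3a2 in both organs, water as open and NMN as filled symbols in both schedules, with mean and SD; a square marks liver NMN replicate 1 at 2680 mg/kg/d. Akr1c13 is separate at 1340 mg/kg/d and Aldh3b1 and Akr1c18 at 2680 mg/kg/d, and Aldh3a2 is higher in each NMN liver at 1340 mg/kg/d.

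Whether NMN acted differently in the organs was tested as an interaction. At 2680 mg/kg/d 2 of 59 genes passed (3.39%), where 2.65% of all 15811 tested genes did. For Rdh16f2 the difference in log2 fold change, liver minus kidney, was -1.30 ± 0.25 (adjusted p = 0.017), with 70.6, 77.7 and 64.6 CPM in water and 63.7, 62.9 and 95.0 CPM in NMN kidneys. For Aldh1l1 the difference was -0.83 ± 0.19 (adjusted p = 0.035), with kidney levels of 398, 417 and 388 CPM in water and 488, 499 and 554 CPM in NMN mice. Aldh1l1 thus had its 3 NMN values above the water values in the kidney and below them in the liver. Neither change passed by itself in edgeR with the filter, all libraries and no block. The kidney change was called by DESeq2, and in edgeR without a filter and without kidney NMN replicate 1. The liver change was called in edgeR without a filter, with the replicate number as a block and without liver NMN replicate 2. Without liver NMN replicate 1 the call for Rdh16f2 held (-1.18 ± 0.26, adjusted p = 0.027) and that for Aldh1l1 did not (-0.73 ± 0.19, adjusted p = 0.056). With each of the 12 libraries left out in turn, the call for Rdh16f2 was lost 3 times, without liver water replicate 2 and kidney water replicates 1 and 3, with an adjusted p of up to 0.061. That for Aldh1l1 was lost 9 times, with an adjusted p of up to 0.098, and held without liver water replicate 3, liver NMN replicate 2 or kidney NMN replicate 1. With the replicate number as a block the organ difference for Aldh1l1 was not called (adjusted p = 0.052). At 1340 mg/kg/d 0 of 59 genes passed in edgeR with all libraries and no block, where 0% of 15614 did. An unadjusted p under 0.05 was reached by 13.6% of the set and 5.79% of all genes, and 1 gene, Aldh3a2, passed in DESeq2 (1.01 ± 0.20 and adjusted p = 0.094 in edgeR).

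Genes that work beside these enzymes were followed in 4 lists. In the liver at 2680 mg/kg/d 4 of 26 tested genes of retinoid handling were called: Ttr, the carrier of retinol-binding protein and also among the hepatocyte markers above, fell by 0.97 and Rarres1 by 1.24 on the log2 scale, and the lipid droplet enzymes Hsd17b13 and Hsd17b11 rose by 0.65 and 0.59. The median of this list was 0.12. Of 28 other carbonyl and steroid reductases 5 were called and all were lower: Hsd3b5 by -2.18 (670 ± 58.4 CPM in water and 145 ± 66.5 CPM in NMN livers), Dcxr of xylulose reduction by -1.12, Hsd17b2 by -0.71, Hsd3b3 by -0.67 and Pecr by -0.57, the last of these named after its value was seen. The median was -0.15. Among 20 other enzymes of ethanol and aldehydes 1 was called, the fructose kinase Khk at -1.16 (808 ± 87.2 against 356 ± 122 CPM), with a median of -0.27, and among 12 enzymes that supply NADPH the mitochondrial isocitrate dehydrogenase Idh2 at -0.93, with a median of -0.20. These shares of 15.4%, 17.9%, 5% and 8.33% stand beside 7.08% of all tested genes. The share of 17.9% counts Pecr, named after its value was seen, and is no test of that list. Ttr, Rarres1, Hsd3b5 and Idh2 were called with each of the 6 libraries left out in turn. Khk lost its call without water replicate 1 or 2, and both lipid droplet enzymes lost theirs without any water library or NMN replicate 3. The other reductases had 2 calls without water replicate 1, 1 without water replicate 2 or NMN replicate 3, 3 without NMN replicate 1 and 7 without NMN replicate 2.

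For NMN in the kidney edgeR called 1 gene of the 4 lists in each schedule. Rarres2, the gene for chemerin, rose in the kidney at 1340 mg/kg/d from 14.1 ± 2.70 to 27.0 ± 3.70 CPM (0.94 ± 0.14, adjusted p = 0.013). It was 1 of 22 genes of its list (4.55% against 0.12% of all genes). The call for Rarres2 was lost at the stricter threshold and held under each other alternative. Hsd3b2, a steroid dehydrogenase, fell in the kidney at 2680 mg/kg/d from 108 ± 14.7 to 69.6 ± 8.04 CPM (-0.63 ± 0.11, adjusted p = 0.045), 1 of 29 genes of its list (3.45% against 0.4%). Its call was lost without water replicates 1 and 3, without NMN replicates 2 and 3 and with library size as the only scale. In the liver at 1340 mg/kg/d 0 of 24, 20, 28 and 12 tested genes of retinoid handling, other ethanol and aldehyde enzymes, other reductases and NADPH supply were called by edgeR and 0 by DESeq2, and 4, 1, 7 and 1 had an unadjusted p under 0.05.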

How the data were processed

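RNA was extracted and polyA-selected libraries were sequenced by the authors on NextSeq or HiSeq instruments. Per the article, reads were aligned with STAR, and HTSeq-count assigned them to genes by strict intersection, ignoring strand. The deposited values are whole-number counts per gene, without normalization or filtering, for 28 libraries. The article's genome build did not match a mouse assembly, and promoter coordinates are those of RefSeq GRCm38.p6. Of 54446 identifiers 53229 matched GENCODE M21 with the same version, 1180 with another and 37 not at all. Reads without a unique place (10.1% to 20.0%), in several genes (1.76% to 5.10%) or in none (3.27% to 12.8%) stayed out of library sizes, so genes with near copies may be undercounted.

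Libraries were grouped by their labels. Whether liver and kidney libraries of 1 number came from 1 mouse, and whether the schedules were handled together, is not given in the sources used here. In R 4.3.3, edgeR 4.0.16 was run within each comparison: filterByExpr, TMM, and the quasi-likelihood test with robust estimates, Benjamini-Hochberg adjustment over all tested genes and a threshold of 0.05. The SE of a log2 fold change is its size over the root of F. The 10 comparisons were NMN against water (4), liver against kidney in water mice (2) and the differences of the NMN effect between schedules (2) and between organs (2). Printed levels are CPM under 1 TMM scaling of all 28 libraries, and RPKM divides them by exon length. Intervals of count ratios are exact and, like the floor of 3 counts, cover counting error only, since the libraries had no molecular identifiers. The steps were tested on simulated data.

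The 67 genes, the lists and the tests were chosen with earlier results of these data known. 1 further Akr gene is not reported here, nor are some genes of the lists. Genes were named by rule: those called in a comparison, the 3 highest of each family by RPKM, and the 3 with the largest organ difference in each direction. Beyond this rule, statistics are given for genes near the threshold or called under an alternative, such as Dhrs9, Akr1c18 and Aldh3a2. These were chosen with their values seen, and Akr1c12 is given as the near copy of Akr1c13. Alternatives were DESeq2 1.42.0, its size factors within edgeR, all genes unfiltered, a minimum of 10 counts per library, a stricter threshold, all 14 libraries of an organ in 1 fit, the replicate number as a block, each library left out, and, added after the data were seen, library size as the only scale.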

Additional observations from a re-analysis of the deposited data

Results flagged for a closer look

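The CPM values are TMM-scaled and come from the 1340 mg/kg/d schedule, where 11 of 163 groups of 4 libraries with a mean of at least 5 CPM (6.75%) held 1 library whose gap to the nearest of the others, as a part of the group's range, was over Dixon's critical value. Chance gives about 1 in 20 such groups where the values are independent. Genes of 1 library are not independent, so whether the number goes beyond chance was not tested. All flagged groups but that of Aldh3a2 were of water mice.

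Among the water livers, replicate 3 was the highest for Adh4 (198 CPM, others 157 to 164) and Akr1c19 (122 CPM, others 65.8 to 72.9) and the lowest for Akr7a5 (202 CPM, others 302 to 306). Replicate 1 was the lowest for Akr1c13 (111 CPM, others 122 to 124) and the highest for Dhrs7b (36.7 CPM, others 27.4 to 27.9).

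Among the water kidneys, replicate 1 was the highest for Rdh10, the enzyme that starts retinoic acid synthesis (71.1 CPM, others 35.5 to 37.2), and for Aldh8a1 (298 CPM, others 235 to 246), and the lowest for Akr1c13 (6.20 CPM, others 7.32 to 7.42). Replicate 4 was the lowest for Akr1c19 (11.8 CPM, others 16.0 to 16.5) and the highest for Aldh3b1 (10.9 CPM, others 8.65 to 8.93). In the NMN kidneys replicate 1 was the highest for Aldh3a2 (167 CPM, others 126 to 130).

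The effect of NMN at 2680 mg/kg/d differed between liver and kidney, by the interaction test of edgeR, for Rdh16f2 (-1.30 on the log2 scale, liver minus kidney, adjusted p = 0.017) and Aldh1l1 (-0.83, adjusted p = 0.035). The 3 NMN livers were below the 3 water livers for both genes. With each of the 12 libraries left out in turn, the call for Rdh16f2 was lost 3 times (adjusted p up to 0.061) and that for Aldh1l1 9 times (up to 0.098).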

How the results depend on the processing

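Among the genes with an adjusted p under 0.1 for NMN against water, or called for the difference of that effect between organs, no alternative reversed a direction. The number of genes of the set called for NMN against water in the liver was 0 at 1340 mg/kg/d and 1 with DESeq2, with the replicate block and without a filter (all genes 2, against 74, 16 and 44), and 0 to 1 with each library left out. In the liver at 2680 mg/kg/d it was 6, against 10 with DESeq2, 13 without a filter, 1 at the stricter threshold (all genes 883, against 1450, 1785 and 135) and 1 to 10 with each library left out. In the kidney at 1340 mg/kg/d it was 1, against 2 with DESeq2 and without a filter, 0 with library size as the only scale (chosen after seeing the data) and at the stricter threshold (all genes 18, against 159, 269, 12 and 2, and 75 with the block), and 0 to 1 with each library left out. In the kidney at 2680 mg/kg/d it was 1, against 4 with DESeq2, 2 with the replicate block, 2 with DESeq2's size factors, 5 without a filter, 0 with library size as the only scale and at the stricter threshold (all genes 61, against 236, 92, 63, 514, 62 and 3, and 35 with all 14 libraries in 1 fit), and 0 to 3 with each library left out.

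For the difference between schedules it was 0 in the liver, against 4 with DESeq2 and 0 to 1 with each library left out (all genes 10 against 98), and 0 in the kidney in each (all genes 1, against 10 with DESeq2 and 2 with the block). For the difference between organs at 1340 mg/kg/d it was 0, against 1 with DESeq2 and 0 to 1 with each library left out (all genes 0, against 27, and 5 with the block). At 2680 mg/kg/d it was 2, against 8 with DESeq2 and 0 to 5 with each library left out (all genes 419, against 1234, and 247 with the block). The organ comparison in water mice gave 34 to 52 and 36 to 51 called genes over the alternatives run on all libraries (all genes 7041 to 11841 and 7340 to 12245). With each library left out it gave 46 to 49 and 46 to 53 (all genes 9075 to 10275 and 9548 to 10945). Apart from fewer libraries, the cause of these moves was not tested.

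In the pairing check, no comparison had a correlation over 0.1 between the deviations of same-numbered libraries in every pair (0.058 to 0.151 in the liver and -0.014 to 0.043 in the kidney at 2680 mg/kg/d), and the numbers were not taken as pairs. As a hint from the data, every library correlated best with its own number in the liver at 2680 mg/kg/d and between organs at 2680 mg/kg/d, and not in the other comparisons. With the replicate block the set had 1, 9, 1 and 2 calls in the liver at 1340 and 2680 mg/kg/d and the kidney at 1340 and 2680 mg/kg/d (0.129%, 9.24%, 0.501% and 0.603% of all genes), 47 and 49 between organs (67.8% and 69.5%), and 2 for the organ difference at 2680 mg/kg/d (1.56%), where Aldh9a1 took the place of Aldh1l1 (adjusted p = 0.052).

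The tests of single named genes kept their side of the threshold 83 times, gained a call 6 times and lost it 35 times with a library left out, and 95, 18 and 3 times under the other alternatives. Precision differed with the level of the gene, and the SE in the liver at 2680 mg/kg/d was 0.47 for the low gene Rdh9 and 0.17 for Rdh16f2.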
